A study of Homo sapiens with 6 samples.

Results

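Glycolysis and hypoxia-induced genes were followed in SK-MES-1 cells, a widely used human line from a squamous tumour of the lung, grown with or without exosomes of lung fibroblasts from idiopathic pulmonary fibrosis, small vesicles that these cells release. The genes were chosen by symbol from a fixed list, made with earlier results of these data known. Of 39 symbols named, 37 had a row in the deposited table of 15761 genes, and all 37 were among the 12449 genes tested. SLC16A1 was not analysed here, and the remaining symbol is no gene name. The control group had 3 libraries of cells kept 72 h without exosomes, and the exosome group had 3 libraries of cells given 20 µg/ml exosomes in complete medium for the same 72 h. All libraries are labelled wild type, no group given vesicles of other fibroblasts was analysed here, and the comparison asks what the fibroblast exosomes do to transcripts of the tumour cells. Nothing in the labels tells whether replicates are separate cultures, so the p-values measure only the spread between these samples, which may be technical.

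Glycolysis splits glucose to pyruvate in the cytosol. Glucose enters through SLC2A transporters, hexokinase and phosphofructokinase commit it, and lactate dehydrogenase and SLC16A transporters turn pyruvate into lactate and export it. When oxygen is low, the prolyl hydroxylases of the EGLN family stop marking the alpha subunits HIF1A and EPAS1 for destruction, and the stabilised subunits pair with ARNT and raise many glycolytic genes together with genes for blood vessel growth, pH control and mitochondrial turnover. Tumour lines often run this programme in full oxygen. Control of the alpha subunits is largely at the protein level, which transcript counts do not show.

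With exosomes, 16 of the 37 genes rose and 6 fell (edgeR quasi-likelihood test, adjusted p under 0.05), or 59.5% of them called, against 51.7% of all tested genes (25.6% higher and 26.1% lower). The rises were led by CA9 (2.17-fold), VEGFA (1.91-fold), SLC16A3 (1.86-fold) and ENO2 (1.66-fold), and in this fit only CA9 of the 37 passed 2-fold. The median log2 fold change was 0.12, against 0.00 over all tested genes. The summed reads of 15 glycolytic enzymes went from 0.909% to 0.940% of each control library to 1.09% to 1.13% of each exosome library, so the groups did not overlap. GAPDH, ENO1 and PKM made up 76.4% to 77.7% of this sum in each library, and of them only ENO1 passed the test (adjusted p = 0.0467). The other 12 enzymes summed to 0.206% to 0.210% of each control library and 0.244% to 0.262% of each exosome library. Scaled by library totals alone, 18 genes rose and 2 fell. On this scale the levels of the groups did not overlap for 25 of the 37 genes (67.6%, with 20 higher and 5 lower). The same held for 59.5% of all tested genes (4362 higher and 3045 lower), so groups that do not overlap are common here.

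The libraries held 11346639 to 13334508 counts each, so 1 CPM (a count scaled to library size) was 11.3 to 13.3 reads. Control library 3 and exosome library 3 each lay farthest from the others of their group. Over all tested genes, fold changes followed the GC content of the transcript: from the lowest to the highest of 10 GC bins the median moved from -0.39 to 0.49 in log2 units. Because glycolytic transcripts are of middling to high GC content (43.3% to 64.1% in the 15 enzymes) and HIF1A is of low GC content (36.4%), each of the 37 genes is given below with a second value, called trend-removed, from a fit in which the GC and length trend of each library was subtracted. Where the trend comes from was not tested. Trend-removed, 11 of the 37 genes were higher and 8 lower (51.4%), against 35.4% of all tested genes called in that fit (18.2% higher and 17.3% lower). Called in the same direction in both fits were 12 genes (32.4%), against 24.3% of all tested genes: SLC2A3, SLC16A3, TPI1, PGK1, ENO2, PFKFB3, PFKFB4, CA9, VEGFA and NDRG1 were higher, and LDHB and P4HA2 were lower. Of the 22 calls without trend removal, 10 ended with it, and 7 other genes gained a call. The labelled cell type was checked against its markers: KRT8 and KRT18 were abundant in all libraries (means of 2340.1 and 997 CPM in control, 1944 and 804 CPM with exosomes), whereas the squamous keratins KRT5, KRT6A and KRT14 stayed at or below 0.45 CPM. Of 8 tested squamous or epithelial markers, 5 fell, all 5 also trend-removed, among them KRT8, KRT18, KRT17 (-1.71) and CDH1 (-1.39). The other 3 did not pass: TP63 was at 0.50 (trend-removed 0.74), SOX2 at 0.28 (trend-removed 0.12) and EPCAM at -0.22 (trend-removed -0.31). For TP63, at 1.02 to 2.4 CPM, every exosome library was above every control library. Trend-removed, EPCAM was called lower (adjusted p = 0.0022), whereas TP63 and SOX2 were not called. Summed leukocyte markers (6 of 7 in the table) were 164 to 196 CPM in control and 256 to 277 CPM with exosomes, with CD14 at 1.52 (trend-removed 1.13) and PTPRC, CD3E and ITGAM at or below 0.353 CPM. Summed fibroblast markers (7 of 10 in the table) were 104 to 114 CPM in control and 48.9 to 54.2 CPM with exosomes, and COL3A1, PDGFRA, FAP and THY1 stayed at or below 0.441 CPM. Most of this sum came from the collagen genes COL1A1 (means of 60.2 and 30.6 CPM) and COL1A2 (40.8 and 13.6 CPM). Both fell (-1.06 and -1.67, trend-removed -1.29 and -1.38), and PDGFRB was at -0.27 (adjusted p = 0.193, trend-removed -0.43). The part of these shifts in the results below was not tested. In these bulk samples, fewer cells of a kind and less RNA per cell cannot be told apart.

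**Figure D1:**
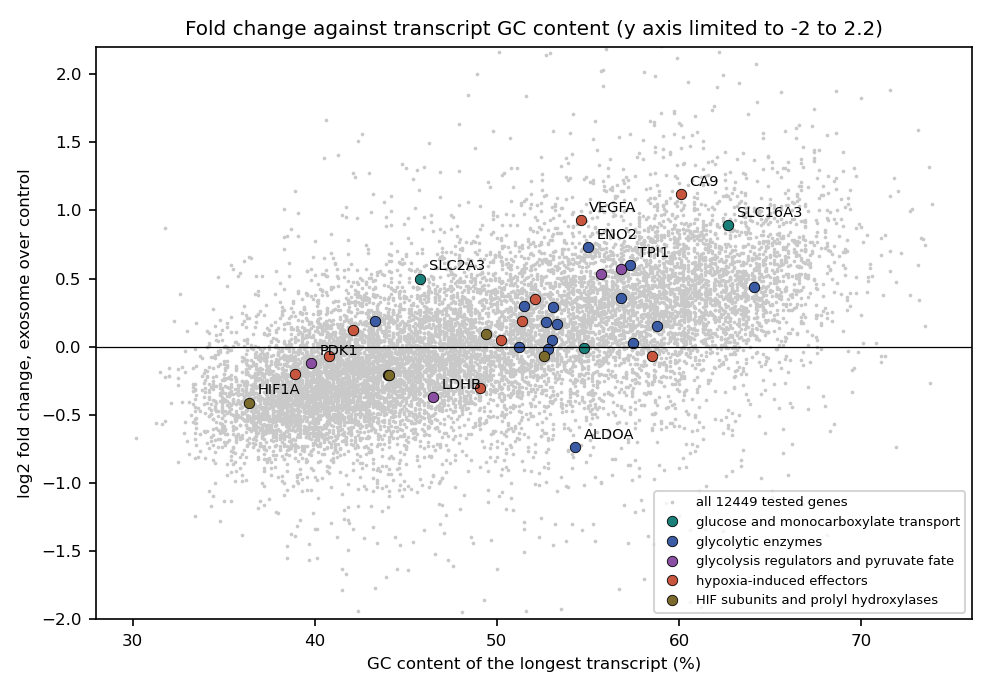
Log2 fold change of exosome over control (y axis) against the GC content of the longest transcript in percent (x axis) for all tested genes (grey) and for the 37 glycolysis and hypoxia genes coloured by role. CA9, VEGFA, ENO2 and SLC2A3 lie above the trend of the grey points, while HIF1A (36.4% GC) and PFKL (64.1% GC) lie close to it.

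Among the transporters, SLC2A3, which encodes the high-affinity glucose transporter GLUT3, rose in both fits. It had 87.4, 96.3 and 99.3 CPM in control libraries 1 to 3 and 133, 144 and 146 CPM in exosome libraries 1 to 3. The groups did not overlap, and the log2 fold change was 0.50 ± 0.079 (SE; adjusted p = 2.68e-05), trend-removed 0.60 ± 0.062. SLC2A1, which encodes the widely expressed transporter GLUT1, averaged 121 ± 4.26 CPM in control and 127 ± 5.95 CPM in exosome libraries (mean ± SD, n = 3 here and below). Its log2 fold change of -0.01 had a 95% interval of -0.17 to 0.15, while the trend-removed value was -0.21 (adjusted p = 0.00801). SLC16A3, which encodes the lactate exporter MCT4, had 79.6, 71.4 and 69.4 CPM in control and 169.9, 139 and 124 CPM with exosomes. Every exosome library exceeded every control library, and the log2 fold change was 0.89 ± 0.099 (adjusted p = 7.69e-07), trend-removed 0.56 ± 0.068.

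**Figure D2:**
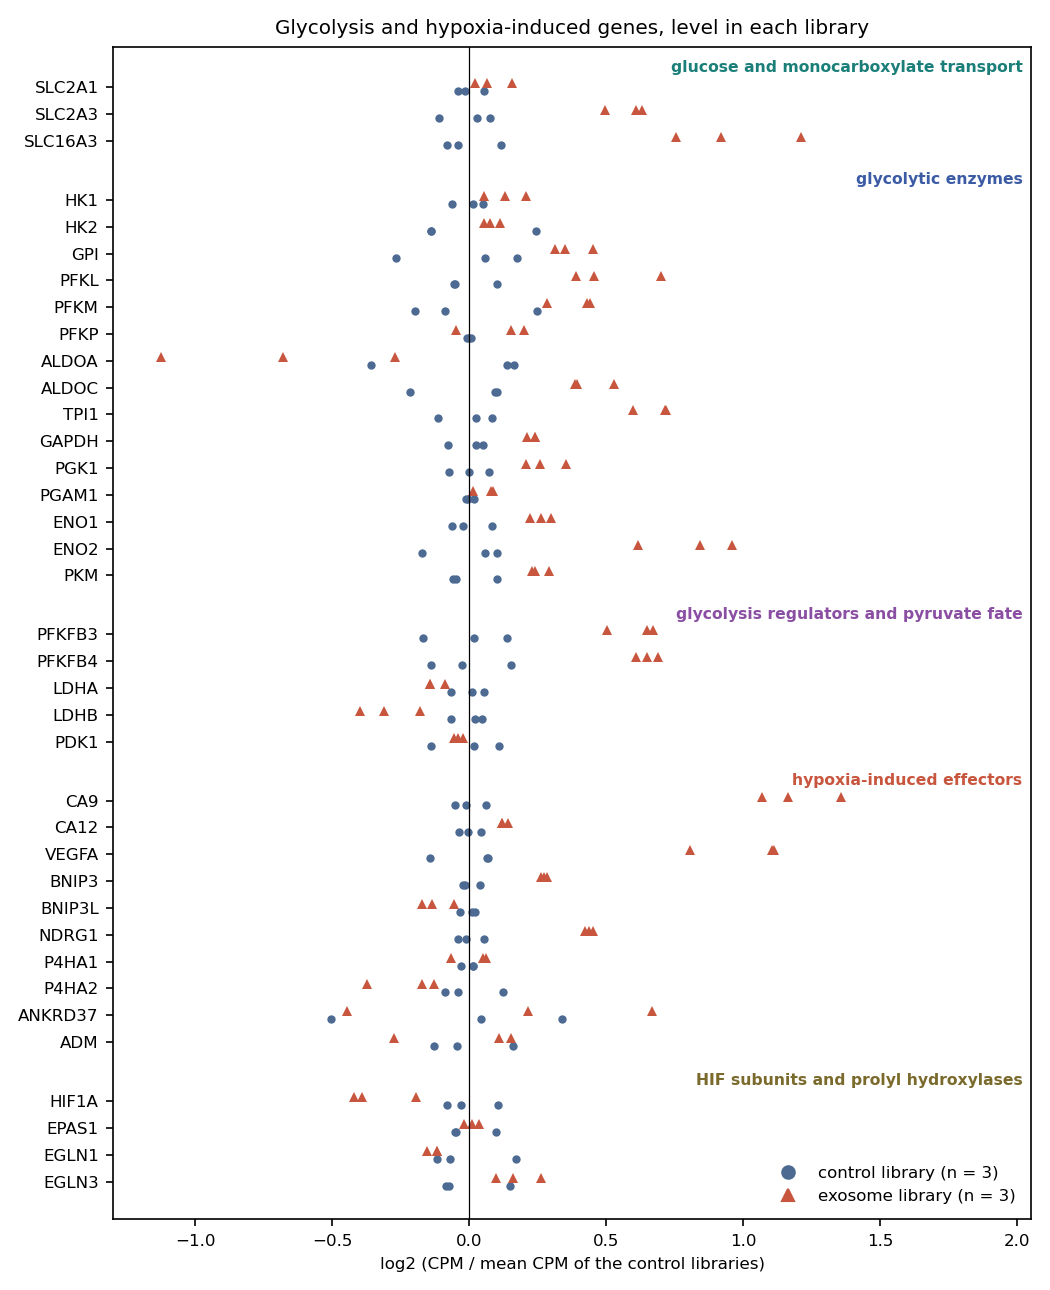
Level of each gene in each library as log2 of CPM over the mean CPM of the control libraries (x axis), by role. Blue circles are the 3 control and red triangles the 3 exosome libraries; CA9, VEGFA and SLC16A3 show the widest gaps between the groups, and HK2, P4HA1, ANKRD37 and ADM overlap.

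Of the 15 enzymes of the glycolytic chain, 8 rose, 7 did not pass and 0 fell by edgeR's test, with a median log2 fold change of 0.18. The share called was 53.3%, close to the 51.7% of all tested genes. The 8 became 4 without exosome library 1 and 5 without control library 1 or 2 or without exosome library 2. Trend-removed, 3 were higher and 4 lower, with a median of 0.00. TPI1, which interconverts the triose phosphates, had 241, 231 and 209.8 CPM in control and 373, 374 and 344 CPM with exosomes. The log2 fold change of TPI1 was 0.60 ± 0.078 (adjusted p = 3.19e-06), and the trend-removed value was smaller, 0.21 ± 0.056 (adjusted p = 0.00541). ENO2, the neuronal-type enolase, had 24.8, 29.1 and 30.0 CPM in control and 50.2, 54.4 and 42.9 CPM with exosomes. No control library reached the lowest exosome library for either enzyme. The log2 fold change of ENO2 was 0.73 ± 0.11 (adjusted p = 1.01e-05), trend-removed 0.46 ± 0.094.

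PGK1, the first ATP-yielding enzyme of the chain, had 616, 648 and 683 CPM in control and 777, 828 and 749 CPM with exosomes. PGK1 has the lowest GC content of these enzymes (43.3%), and its log2 fold change was larger trend-removed (0.40 ± 0.061, adjusted p = 4.06e-05) than without it (0.19 ± 0.074, adjusted p = 0.0339). The latter call ended when control library 1 or 2, or exosome library 1 or 2, was left out (range of adjusted p, 0.0600 to 0.174). The muscle-type and liver-type phosphofructokinases PFKM and PFKL rose by 0.30 and 0.44 on the log2 scale, GPI, the glucose phosphate isomerase, by 0.29 and ALDOC, a brain-type aldolase, by 0.36, and ENO1, the major enolase, by 0.18. None of these 5 passed trend-removed (0.18, 0.10, 0.17, 0.00 and -0.03). The calls of PFKM and ENO1 also ended without any of control libraries 1 and 2 and exosome libraries 1 and 2, and that of GPI without control library 3 or either of exosome libraries 1 and 3 (range of adjusted p, 0.0514 to 0.181).

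The other enzymes did not pass without trend removal. GAPDH, which oxidises glyceraldehyde phosphate and is often used as a reference gene, had 2824, 2768 and 2582 CPM in control and 3221, 3221 and 3154 CPM with exosomes. Although the groups did not overlap, its log2 fold change was 0.15 ± 0.075 (adjusted p = 0.101), and the trend-removed value had the opposite sign (-0.26 ± 0.069, adjusted p = 0.00551). GAPDH was called higher with library totals (adjusted p = 0.0116), with DESeq2 (adjusted p = 0.0434) and with a replicate block (adjusted p = 0.0302). PKM, the pyruvate kinase of most tumours, averaged 1976 ± 125 CPM in control and 2355 ± 53.3 CPM in exosome libraries (a difference of 0.17 on the log2 scale, adjusted p = 0.0581; trend-removed -0.03). PKM passed without control library 3 (adjusted p = 0.00782) and with library totals, DESeq2, limma-voom and a replicate block (adjusted p = 0.00751 to 0.0344).

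The hexokinases, which trap glucose in the cell, did not pass: HK1 had a log2 fold change of 0.05 (95% interval -0.11 to 0.21; trend-removed -0.09) and HK2 of 0.00 (-0.18 to 0.19; trend-removed 0.03). HK2 was 132, 132 and 172 CPM in control and 153, 151 and 157 CPM with exosomes, so its exosome libraries lay inside the control range. PFKP, the platelet-type phosphofructokinase, and PGAM1, the phosphoglycerate mutase, were at 0.03 and -0.02 without trend removal and lower with it (-0.31 and -0.28). ALDOA, usually the main aldolase outside brain and liver, was counted at only 1.65, 1.15 and 1.62 CPM in control and 1.22, 0.920 and 0.675 CPM with exosomes. In GENCODE 29, 42.3% of its exon bases also belong to a second coding gene on the same strand, AC093512.2, and whether this lowers its counts was not tested. The log2 fold change of ALDOA, -0.74 ± 0.38 (adjusted p = 0.108; trend-removed -1.01, adjusted p = 0.0390), therefore rests on few reads. GAPDH has 62 named pseudogenes in the same annotation, PGAM1 13, LDHA 6 and PKM 5, and BNIP3 39, so the share of reads given to each of these genes is uncertain.

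**Figure D3:**
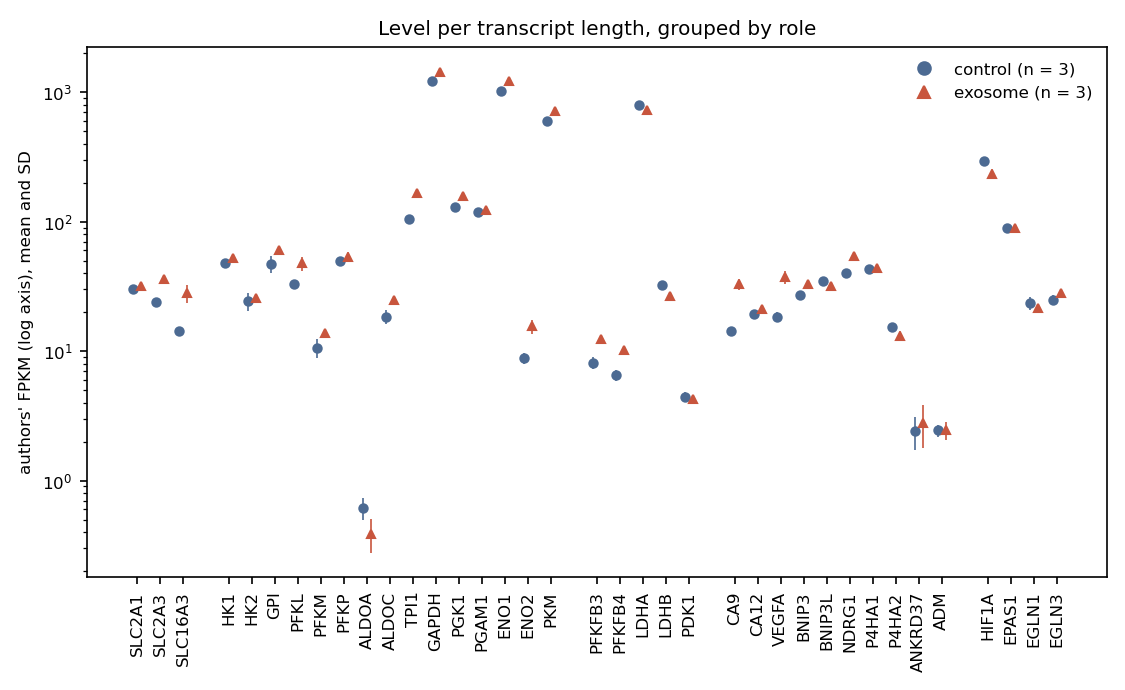
Authors' FPKM (counts scaled to transcript length and library size, log axis) of each gene, mean and SD of 3 libraries, grouped by role. GAPDH, ENO1, LDHA and PKM stand highest, and ALDOA is the lowest of all 37 genes.

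Levels per transcript length, from the authors' FPKM, were ordered GAPDH (1225 ± 57.1 in control), ENO1 (1024 ± 53.4), LDHA (791 ± 32.6), PKM (597 ± 37.8) and HIF1A (296 ± 19.8). Each of these differed from its neighbour by more than the control SD. PGK1 (130.2 ± 6.74) and PGAM1 (119 ± 1.32) were close, and PFKP (49.5 ± 0.254), HK1 (47.7 ± 1.85) and GPI (46.9 ± 7.15) did not differ beyond their spread. The regulators PFKFB3 (8.14 ± 0.862), PFKFB4 (6.49 ± 0.661) and PDK1 (4.41 ± 0.379) were low, and ADM (2.44 ± 0.257), ANKRD37 (2.41 ± 0.679) and ALDOA (0.612 ± 0.118) were lowest.

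Both bifunctional regulators of phosphofructokinase among the 37 genes rose, whereas PFKFB2, which is on a further list, fell (-0.66, trend-removed -0.39). PFKFB3, which makes the sugar bisphosphate that activates phosphofructokinase, had 44.8, 39.4 and 48.7 CPM in control and 69.5, 70.6 and 62.8 CPM with exosomes. This gave a log2 fold change of 0.53 ± 0.094 (adjusted p = 8.76e-05; trend-removed 0.35 ± 0.080). PFKFB4, a hypoxia-induced relative, had 21.1, 25.8 and 22.8 CPM in control and 37.5, 36.4 and 35.4 CPM with exosomes, which gave a log2 fold change of 0.57 ± 0.11 (adjusted p = 1.39e-04; trend-removed 0.31 ± 0.096). For both genes the lowest exosome library lay above the highest control library.

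Both lactate dehydrogenase subunits were lower with exosomes. LDHA, which favours lactate formation, had 2366, 2246 and 2438 CPM in control and 2129.6, 2128 and 2209 CPM with exosomes. For LDHA the log2 fold change of -0.21 ± 0.074 (adjusted p = 0.0239) did not pass trend-removed (-0.13, adjusted p = 0.112), with library totals (adjusted p = 0.158), or when control library 1 or 2, or exosome library 1 or 2, was left out (range of adjusted p, 0.0509 to 0.115). LDHB, the heart-type subunit, had 49.4, 53.4 and 52.5 CPM in control and 39.3, 41.7 and 45.7 CPM with exosomes, which gave a log2 fold change of -0.37 ± 0.094 (adjusted p = 0.00222; trend-removed -0.48 ± 0.087, adjusted p = 2.31e-04). Every exosome library was below every control library for both subunits. For LDHB, 33.4% of the exon bases lie in another coding gene, AC010197.2. PDK1, a kinase that inhibits pyruvate dehydrogenase, overlapped between groups at 57.1 to 67.8 CPM in control and 60.5 to 61.8 CPM with exosomes. The log2 fold change of PDK1 was -0.12 ± 0.087 (adjusted p = 0.261) and, trend-removed, 0.39 ± 0.072 (adjusted p = 2.55e-04).

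Of 10 hypoxia-induced effectors, 4 rose and 2 fell, with a median log2 fold change of 0.08. The share called was 60.0%, against 51.7% of all tested genes, and trend-removed 3 were higher and 2 lower. The 2 lower became 0 without exosome library 1 or with library totals, and 1 without control library 1 or 2, without exosome library 2 or with no filter on low counts. CA9, a membrane carbonic anhydrase that acidifies the surroundings of the cell, had 22.3, 24.1 and 22.9 CPM in control and 51.7, 59.1 and 48.5 CPM with exosomes. The lowest exosome library held more than 2 times the mean of the controls, and the log2 fold change was 1.12 ± 0.10 (adjusted p = 2.84e-08), trend-removed 0.65 ± 0.092 (adjusted p = 1.66e-05). In the annotation 38.5% of the exon bases of CA9 lie in ARHGEF39 on the opposite strand, which rose by 0.65 as well, and whether reads were assigned by strand is not known from the labels or headers. CA12, a second membrane carbonic anhydrase, went from 124 ± 3.44 to 136 ± 1.16 CPM, and its log2 fold change was 0.05 (95% interval -0.10 to 0.20; trend-removed 0.12).

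VEGFA, the main growth factor of blood vessel cells, had 62.7, 72.6 and 72.4 CPM in control and 149, 149.8 and 121 CPM with exosomes. VEGFA had a log2 fold change of 0.93 ± 0.089 (adjusted p = 5.48e-08), and the trend-removed value of 1.07 ± 0.074 (adjusted p = 1.03e-09) was the largest of the 37. Trend removal took VEGFA at the length of its longest annotated transcript, 12167 bases, and how far this length sets the value was not tested. NDRG1, a stress-induced gene that marks low oxygen in many tumours, had 145, 148 and 155 CPM in control and 204, 202 and 200.3 CPM with exosomes. The groups stood apart for both genes, and NDRG1 had a log2 fold change of 0.35 ± 0.073 (adjusted p = 3.80e-04; trend-removed 0.24 ± 0.056).

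The mitophagy receptors BNIP3 and BNIP3L moved in opposite directions by little. BNIP3 averaged 78.1 ± 1.80 CPM in control and 94.4 ± 0.743 CPM with exosomes (0.19 on the log2 scale, adjusted p = 0.0442) and BNIP3L 134 ± 2.39 and 123 ± 4.84 CPM (-0.20, adjusted p = 0.0283). Neither passed trend-removed (0.05 and 0.07), and both calls ended when control library 1 or 2, or exosome library 1 or 2, was left out, that of BNIP3 also without exosome library 3 (adjusted p = 0.0558 to 0.123 over both genes). The call of BNIP3L also ended with library totals (adjusted p = 0.170) and with no filter on low counts (adjusted p = 0.0554). P4HA2, a subunit of the enzyme that hydroxylates collagen prolines, had 53.2, 55.0 and 61.7 CPM in control and 43.7, 51.8 and 50.2 CPM with exosomes. It fell by 0.30 on the log2 scale (adjusted p = 0.0105; trend-removed -0.36 ± 0.084), a call that ended without exosome library 1 (adjusted p = 0.0754) or with library totals (adjusted p = 0.0584). Its relative P4HA1 was at -0.07 (95% interval -0.23 to 0.09; trend-removed 0.11). ADM, the vasodilator adrenomedullin, and ANKRD37 had 5.47 to 7.40 CPM and 1.94 to 4.37 CPM over all libraries, and their groups overlapped (-0.07 and 0.12). Trend-removed, ADM was lower (-0.48 ± 0.17, adjusted p = 0.0289) and ANKRD37 was at 0.10.

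The sensors EGLN1 and EGLN3 and the alpha subunits HIF1A and EPAS1 did not rise. HIF1A had 1191, 1235 and 1354 CPM in control and 942, 961 and 1101 CPM with exosomes, so every exosome library was lower. Its log2 fold change of -0.41 ± 0.082 (adjusted p = 2.61e-04) shrank to -0.08 ± 0.061 trend-removed (adjusted p = 0.317). EPAS1, which encodes the second alpha subunit, had 461 ± 28.3 and 464 ± 8.73 CPM (-0.07, 95% interval -0.23 to 0.08; trend-removed -0.12). EGLN1, the main oxygen sensor, was at -0.21 (adjusted p = 0.0337), and EGLN3, a sensor that hypoxia itself induces, at 0.09 (adjusted p = 0.369). The groups overlapped for both, and trend-removed they were at 0.05 and 0.01. The call of EGLN1 ended when control library 2 or 3, or exosome library 1 or 2, was left out (range of adjusted p, 0.0538 to 0.232), with library totals (adjusted p = 0.193) and with DESeq2 (adjusted p = 0.0505).

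**Figure D4:**
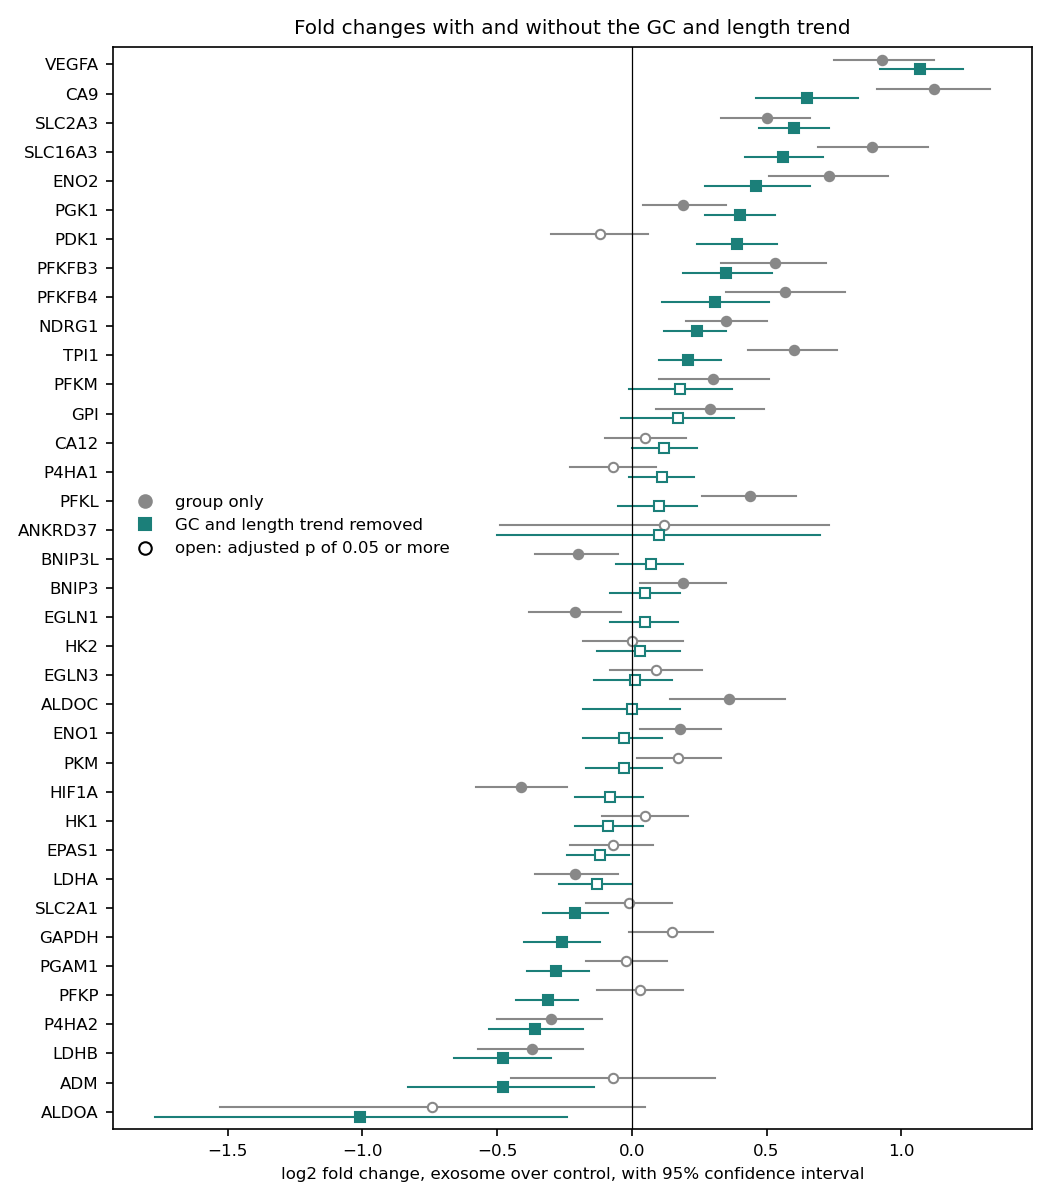
Log2 fold change of exosome over control with its 95% confidence interval for the 37 genes, without (grey circles) and with (green squares) removal of the GC and length trend, ordered by the latter. VEGFA, CA9, SLC2A3, SLC16A3 and ENO2 lie above 0 in both fits, LDHB and P4HA2 below 0 in both, and GAPDH, PFKP and PDK1 change sign.

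Ratios of related genes within a library do not depend on the scaling between libraries. Of 13 pairs, 10 had exosome libraries all on one side of the control libraries, each with an exact two-sided permutation p of 0.1, the smallest that 3 against 3 samples allow (0.130 adjusted over the pairs). The ratio of SLC2A3 to SLC2A1, per base of the longest annotated transcript, was 0.579, 0.672 and 0.704 in control and 0.829, 0.953 and 0.993 with exosomes. In the authors' FPKM, which rest on other transcript lengths, SLC2A3 was at 24.1 ± 1.59 and 36.0 ± 1.73, and SLC2A1 at 30.3 ± 1.07 and 31.9 ± 1.49, so which of them is the more abundant with exosomes depends on the length used. The ratio of CA9 to CA12 was 0.732, 0.747 and 0.730 in control and 1.51, 1.73 and 1.40 with exosomes. ENO2 stayed a small fraction of ENO1, at 0.00923 to 0.0111 in control and 0.0131 to 0.0170 with exosomes. The ratio of LDHA to LDHB was 26.8 to 30.5 in control and 30.8 to 34.5 with exosomes.

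The ratio of PFKP to PFKL fell 1.33-fold, and in the authors' FPKM the liver-type PFKL went from 35.5 ± 0.764% to 41.3 ± 1.80% of phosphofructokinase transcripts. With the trend removed, these differences in log2 units were 0.81 (SLC2A3 to SLC2A1), 0.53 (CA9 to CA12), 0.49 (ENO2 to ENO1), 0.34 (LDHA to LDHB) and -0.41 (PFKP to PFKL), against 0.51, 1.07, 0.55, 0.17 and -0.41 without. The ratios of EPAS1 to HIF1A, EGLN3 to EGLN1 and BNIP3 to BNIP3L rose by 0.34, 0.30 and 0.40 within libraries, but were at -0.04, -0.04 and -0.02 with the trend removed. The pairs HK2 to HK1, PFKM to PFKL and PFKFB4 to PFKFB3 overlapped between groups. The ratio of ALDOC to ALDOA rests on the few reads of ALDOA.

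**Figure D5:**
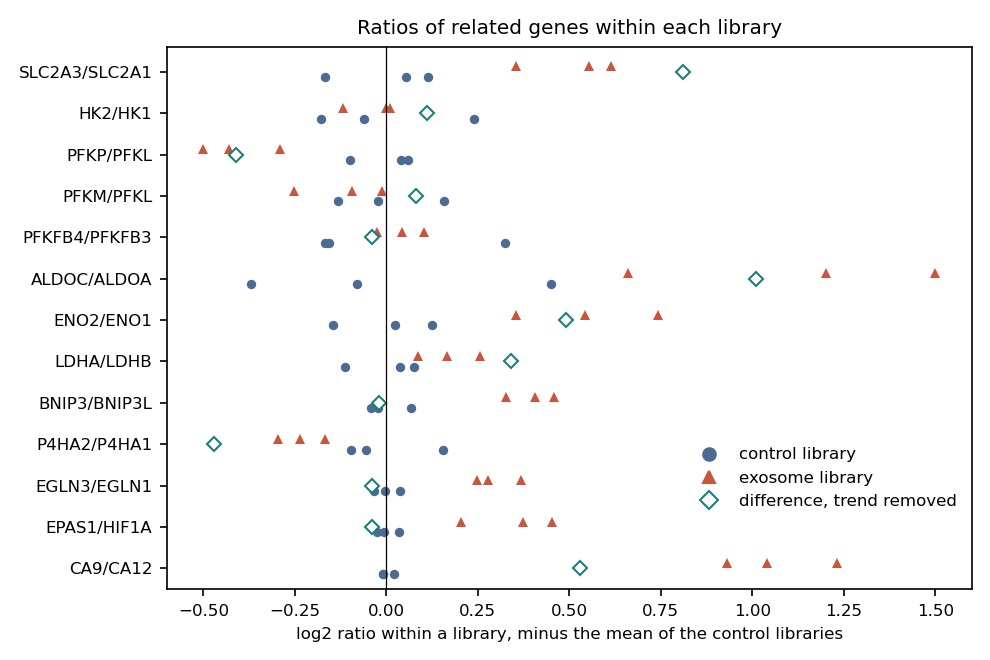
Log2 ratio of related genes within each library minus the mean of the control libraries (x axis) for 13 pairs. Blue circles are control and red triangles exosome libraries (n = 3 each), and open green diamonds give the difference with the GC and length trend removed; CA9/CA12 and SLC2A3/SLC2A1 stand apart from 0 in both, and EPAS1/HIF1A and EGLN3/EGLN1 only without trend removal.

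HIF dimers bind DNA at a short core, ACGTG or GCGTG, which is why these letters were searched on both strands in the 250 bases before each annotated start site (RefSeq, GRCh38.p14). The reverse complement of ACGTG is CACGT, and the run CACGTG, which other factors also bind, counts on both strands. Windows were found for 33 of the 37 genes, 60 in all; SLC2A3, VEGFA, BNIP3L and NDRG1 had none. ACGTG stood in 36.7% of these windows, against 21.9% of 14357 windows of all tested genes, and GCGTG in 31.7% against 43.2%. These genes were listed partly as known HIF targets, so the shares describe the list. Counted by gene, 19 of the 33 (57.6%) held ACGTG in at least 1 window, against 28.5% of 9828 tested genes. A gene with more windows has more chances to hold a match. The median GC content was 68.4% in the windows of the listed genes and 64.4% in those of all tested genes. Of the 7 genes higher in both fits that had a window, 6 did. SLC16A3 held ACGTG in only 1 of 5 windows, and PFKFB3 and TPI1 each in 1 of 2. Which start sites these cells use was not tested. The match nearest to a start site is shown for these 6, with 12 bases on each side and the match in capitals (5′ to 3′ on the strand of the gene).
CA9: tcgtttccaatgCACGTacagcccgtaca
SLC16A3: cgtgcgcgggggACGTGccgcgccagcga
ENO2: acccgcgctcgtACGTGcgcctccgccgg
PFKFB3: accctcctccccACGTGgaagggggctgg
TPI1: cgtgcgccgccgCACGTagccccagactc
PGK1: aaacggaagccgCACGTctcactagtacc

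These lie at chr9:35673898-35673926 (CA9, plus strand, 18 bases before the start site), chr17:82228975-82229003 (SLC16A3, plus, 55 bases), chr12:6914450-6914478 (ENO2, plus, 118 bases), chr10:6202813-6202841 (PFKFB3, plus, 107 bases), chr12:6868076-6868104 (TPI1, plus, 17 bases) and chrX:78104053-78104081 (PGK1, plus, 183 bases). The same letters stood before genes that did not rise in both fits, 13 of 26 of them. Shown for comparison are LDHA and EGLN1, which fell without trend removal only, and PDK1 and GAPDH.
LDHA: cgtgggttcccgCACGTccgccggccccc
EGLN1: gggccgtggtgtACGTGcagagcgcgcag
PDK1: cgccacgtccctCACGTaccactcggcag
GAPDH: ctctgcggggtcACGTGtcgcagaggagc

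Their positions are chr11:18394478-18394506 (LDHA, plus strand), chr1:231422284-231422312 (EGLN1, minus), chr2:172556070-172556098 (PDK1, plus) and chr12:6535172-6535200 (GAPDH, plus). These matches, too, lie inside the annotated genes. A match of letters is a description of the window and not a bound site, and no binding was measured in these samples.

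Other genes of the pathways moved in both directions. Among 22 further hypoxia-induced genes, 6 rose and 5 fell, with a median log2 fold change of -0.10 (trend-removed 7 and 5, median 0.02). ANGPTL4, a secreted inhibitor of lipoprotein lipase, had 4.48, 5.38 and 2.17 CPM in control and 20.0, 16.0 and 12.4 CPM with exosomes (log2 fold change 1.93, adjusted p = 3.67e-05; trend-removed 1.41). Every exosome library of ANGPTL4 was above every control library. The collagen cross-linking enzymes LOX and PLOD2 fell by 0.52 and 0.53 on the log2 scale (trend-removed -0.19 and -0.20). Of 11 tested components of the HIF pathway, ARNT2 rose (0.95, trend-removed 0.97, at 1.51 ± 0.261 and 3.11 ± 0.326 CPM) and CUL2, a scaffold of the ligase that degrades the alpha subunits, fell by 0.38 (trend-removed -0.09, adjusted p = 0.347). The adaptors ELOB and ELOC, at 0.19 (adjusted p = 0.0881) and -0.25 (adjusted p = 0.0502), did not pass. Trend-removed, both were lower (-0.36, adjusted p = 1.04e-04, and -0.34, adjusted p = 0.00608), so that ELOB changed sign, and with the replicate block both were called in the direction of the first fit (adjusted p = 0.0161 and 0.0280).

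Of 18 other glycolysis and glycogen genes, 2 rose and 4 fell, as many as trend-removed. PFKFB2, a further regulator of phosphofructokinase, had 25.8, 25.8 and 29.5 CPM in control and 17.3, 18.3 and 18.8 CPM with exosomes, and fell by 0.66 on the log2 scale (adjusted p = 5.97e-05; trend-removed -0.39), opposite to PFKFB3 and PFKFB4. PGAM5, a mitochondrial phosphatase despite its name, rose by 0.52 (trend-removed 0.26), and the glycogen phosphorylase PYGB was at -0.27 (adjusted p = 0.00487; trend-removed -0.53). UGP2, which makes UDP-glucose, fell by 0.33 but was at -0.02 trend-removed.

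Past pyruvate, 1 of 12 genes of pyruvate dehydrogenase and pyruvate import rose and 4 fell. Trend-removed the balance was the other way, with 5 higher and 2 lower: PDHB (0.21), DLAT (0.18), PDK4 (0.53) and PDP1 (0.34), named here after their values were seen, were higher in that fit alone. PDHA1, the catalytic subunit of pyruvate dehydrogenase, went from 88.3, 87.5 and 83.7 CPM to 127, 131 and 112 CPM (0.43, adjusted p = 1.62e-04; trend-removed 0.46). MPC1, a subunit of the mitochondrial pyruvate carrier, went from 19.7, 20.4 and 25.4 CPM to 14.0, 13.6 and 14.5 CPM (-0.72, adjusted p = 9.22e-05; trend-removed -0.80). The groups were apart for both, in opposite directions. The phosphatase PDP2 fell by 0.57 (trend-removed -0.33) and the shared subunit DLD by 0.27 (trend-removed 0.00). In the tricarboxylic acid cycle, 5 of 16 genes rose and 1 fell (trend-removed 4 and 1), with IDH3B (0.56, trend-removed 0.23) and SDHA (0.41, trend-removed 0.32) called in both fits and IDH3G (0.39, trend-removed -0.09) and MDH2 (0.30, trend-removed 0.09) in the first alone.

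In the pentose phosphate pathway, which branches from glycolysis to make NADPH and ribose, 3 of 7 genes rose and 1 fell (trend-removed 2 and 2). The transketolase TKT had 578, 569 and 542 CPM in control and 889.8, 799.6 and 793 CPM with exosomes, which gave a log2 fold change of 0.47 (adjusted p = 2.93e-05; trend-removed 0.39). RPIA, the ribose phosphate isomerase, rose by 0.53 (trend-removed 0.41). PGLS (0.39) and RPE (-0.21) did not pass trend-removed (-0.10 and 0.06). The call of PGLS also ended without exosome library 1 or 3, and that of RPE with library totals, no filter on low counts or DESeq2, and with any of control libraries 2 and 3 and exosome libraries 1 and 2 left out. Over all 6 of these further lists, 18 of 86 tested genes rose and 16 fell (39.5% called, against 51.7% of all tested genes). List by list, the share called ran from 18.2% to 57.1%. Trend-removed, 22 of the 86 were higher and 16 lower (44.2%, against 35.4% of all tested genes), so the share was then above that of all genes. In both fits, 12 rose and 8 fell (23.3%, against 24.3%).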

How the data were processed

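RNA sequencing of 6 SK-MES-1 samples was analysed from 1 deposited table. Per the labels' protocols, RNA was extracted with Trizol and libraries were made with a NEBNext Ultra RNA kit. The submitters' processing notes list STAR and GRCh38 (hg38). Which counting program and annotation were used, and whether by strand, is not given in those notes or headers. Per the file headers, the table holds whole-number read counts per gene. It also holds the authors' normalised signal (counts over 1 factor per library, not used), their FPKM, their log2 fold changes and their p-values; of these, only FPKM was used, for levels between genes and shares of isoforms.

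Groups came from sample titles. The members, lists, pairs and tests were chosen with earlier results of these data known. All 37 members are named, with up to 4 genes per further list, those with the smallest adjusted p. Of these, 1 gene that this rule names is not reported here. The test was edgeR's robust quasi-likelihood fit on group (edgeR 4.0.16, R 4.3.3), after filterByExpr and TMM scaling of the counts, with Benjamini-Hochberg adjustment over 12449 genes at 0.05. Fold changes use TMM scaling, so they differ slightly from ratios of CPM, which are scaled to library totals. Each SE was derived from the F statistic of the fold change. For trend-removed values, log2 CPM minus the mean of the gene was smoothed on GC and log2 length of the longest GENCODE 29 transcript (loess, span 0.3) in each library and entered as an offset. No other transcript length was tried, and the authors' FPKM rest on other lengths for some genes. The alternatives were RLE factors, library totals, DESeq2 1.42.0, limma-voom (limma 3.58.1), no filter, a filter of 1 CPM in 3 libraries, a replicate block, a threshold of 0.01, and fits that left out libraries. The fits were also run on simulated data, where the added trend came from the same smoothing that the offset uses. Such data cannot show whether trend removal suits these samples. Replicates within a group differed by more than sampling noise (chi-square per gene 2.29 to 15.6), so none was merged.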

Additional observations from a re-analysis of the deposited data

How the results depend on the processing

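The counts of 16 higher and 6 lower genes were 18 and 2 with library totals, 11 and 8 with the GC and length trend removed, 11 and 10 with the trend removed and a replicate block, and 11 and 2 at a threshold of 0.01. Leaving out 1 library gave 11 to 16 higher and 2 to 6 lower, the fewest lower without exosome library 1. Without control library 3 and exosome library 3 together, chosen after seeing the data, they were 18 and 6. Over all tested genes, 3190 were higher and 3244 lower, and 2263 and 2148 with the trend removed; leaving out 1 library gave 2503 to 3234 and 2608 to 3375. Over the further pathway lists, 18 higher became 28 with library totals, which moved the median of all genes by 0.08. The cause of these shifts was not tested. With the trend removed, with or without the replicate block, the sign turned for 6 members called in at least 1 of the 2 fits, PFKP (-0.31), GAPDH (-0.26), ENO1 (-0.03), PDK1 (0.39), BNIP3L (0.07) and EGLN1 (0.05). It also turned for PKM (-0.03), HK1 (-0.09) and P4HA1 (0.11), which were called neither with nor without trend removal. Of the 22 calls, 13 stood without any 1 library.

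The replicate numbers are shared by both groups. Deviations from the group mean correlated by 0.066, 0.103 and 0.206 between same-numbered libraries, and by -0.141 to 0.066 between differently numbered ones. Whether same-numbered libraries share a batch is not given in the labels and was not tested. With the replicate block, 18 genes were higher and 6 lower.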
